A study of Homo sapiens with 15 samples.

Results

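The regions described here were borders at which a long partially methylated domain (PMD) of HCT116 cells met a highly methylated domain (HMD). They were chosen by the domain calls of 1 library, the Baseline library of clone Cl.6. An edge of a PMD of 200 kb or more on an autosome was taken as a border when at least 60% of the 50 kb outside it was called HMD in the same list. Of the 1944 edges of such PMDs, 864 were borders (44.4%), out of 12496 edges of PMDs of any length on the autosomes. The borders belonged to 682 PMDs, of which 182 had a border at both ends, and 419 lay at the start and 445 at the end of a PMD. The PMDs at a border had a median length of 567.85 kb, and each autosome held 9 to 76 borders. In 36 pairs of borders the outer flanks overlapped. The HMD share of the outer flank was 60.044% and 60.05% in the borders closest to the limit and 59.808% and 59.762% in the closest edges left out. Its median was 96.9% in borders and 4.76% in the 1080 edges left out.

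Whole-genome bisulfite sequencing was carried out on HCT116, a human colorectal carcinoma cell line, carrying a doxycycline-inducible short hairpin RNA against UHRF1 (shUHRF1) or DNMT1 (shDNMT1). UHRF1 was targeted in 3 clones, each grown from a single cell and named Cl.3, Cl.6 and Cl.9, whereas DNMT1 was targeted in 2 uncloned cultures, R1 and R2. For each population 1 library was made without doxycycline at day 14 (Baseline), 1 after 14 days of 10 ng/mL doxycycline (Knockdown) and 1 at day 28, 14 days after doxycycline was withdrawn (Recovery). No Baseline library of day 28 was compared with Recovery. All populations shared the parental line and carried a hairpin, so no library lacked one. Because all shUHRF1 populations were clones and both shDNMT1 populations were bulk cultures, deposited in separate count tables, differences between the hairpins cannot be told apart from clonal against bulk growth or from the table. Cl.9 had a count table of its own, apart from that of Cl.3 and Cl.6. It also had a median of 20 to 21 reads per autosomal CpG, against 11 to 14 in those 2 clones. Differences of Cl.9 from them cannot be told apart from the table or the depth. The extent to which UHRF1 or DNMT1 was depleted was not analysed here. The 15 libraries held 317670080 to 593644411 reads at CpGs, with a median of 11 to 21 reads per autosomal CpG.

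PMDs are long stretches of the genome in which methylation is intermediate and uneven, and they are known to overlap late-replicating, lamina-associated and mostly inactive chromatin. HMDs are the highly methylated stretches between them, which hold most expressed genes. DNMT1 copies methylation onto the new DNA strand after replication, and UHRF1 recognises hemimethylated DNA and recruits DNMT1 to it. CpGs with A or T on either side and no other CpG nearby (here within 35 bp), called solo-WCGW CpGs, are known to lose methylation most readily when copying falls behind, which makes them a sensitive readout of PMDs.

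The methylation level (mC) was the percentage of reads at a set of CpGs that were methylated. The borders with the largest difference in Baseline mC between their flanks are shown first, because a single CpG on each side makes the difference visible in the reads. The sequences below are from hg38, plus strand, 5′ to 3′, 30 bases each. In capitals is the solo-WCGW CpG nearest the edge among those with at least 10 reads in every library. The borders are named by their nearest protein-coding gene. Those of UBE3A and USP31 were among the 4 largest steps by rule, whereas LMBRD1 was added after its values were seen. Of the 4 largest, the borders beside SRGAP2B and RGPD5 lacked a CpG with 10 reads in every library in at least 1 flank. The search also reached the border of RGPD6, which is not shown. Its inner CpG had intermediate Baseline levels. Methylated reads there were 8 of 14 in Cl.3, 12 of 25 in Cl.6 and 18 of 42 in Cl.9. They were 7 of 20 in R1 and 15 of 27 in R2.
UBE3A inside, chr15:25310981-25311010: ggtgtgtgccaccaCGtctggccaattttt
UBE3A outside, chr15:25316448-25316477: ttgaagttgttccaCGtctcttttgaaaat
USP31 inside, chr16:23060887-23060916: ctttagtgcccccaCGtggccataggtgat
USP31 outside, chr16:23067227-23067256: gaaaaaaaattaaaCGagtgactggctttc
LMBRD1 inside, chr6:69665076-69665105: acagacagctaccaCGttgagaaaggctac
LMBRD1 outside, chr6:69669931-69669960: cattgctttacacaCGtacttgtcttgagc

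USP31 encodes a deubiquitinating enzyme, and the edge lay inside the gene. At its inner CpG, 680 bp from the edge, no read was methylated in any of the 15 libraries, with 0 of 23 reads in Cl.3, 0 of 24 in Cl.6, 0 of 52 in Cl.9, 0 of 32 in R1 and 0 of 42 in R2 at Baseline. At the outer CpG, 5660 bp from the edge, all Baseline reads were methylated, with 18 of 18 in Cl.3, 16 of 16 in Cl.6, 27 of 27 in Cl.9, 12 of 12 in R1 and 31 of 31 in R2. The levels of the 2 CpGs thus lay at opposite ends in all 5 Baseline libraries. The inner CpG did not stand for its flank. The inner 50 kb had a Baseline mC of 44.2% in Cl.3, 44.9% in Cl.6, 42.5% in Cl.9, 45.5% in R1 and 45.9% in R2. Whether this CpG lay in an unmethylated or low-methylated region was not checked. At Knockdown the outer CpG had 17 of 23 methylated reads in Cl.3, 8 of 16 in Cl.6, 10 of 33 in Cl.9, 11 of 29 in R1 and 9 of 26 in R2. At Recovery it had 17 of 18 in Cl.3, 14 of 19 in Cl.6 and 11 of 26 in Cl.9, against 30 of 31 in R1 and 23 of 25 in R2, so Cl.9 was the lowest library at this stage.

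UBE3A, an imprinted ubiquitin ligase gene, lay 19.906 kb outside its border. Its outer CpG had 20 of 20, 29 of 30, 34 of 37, 23 of 23 and 13 of 14 methylated Baseline reads in Cl.3, Cl.6, Cl.9, R1 and R2. Its inner CpG had 1 of 11, 4 of 15, 0 of 41, 6 of 18 and 12 of 24, which made R2 the highest and Cl.9 the lowest population inside. At Knockdown the outer CpG had 6 of 15, 10 of 14, 9 of 35, 7 of 32 and 6 of 19 methylated reads in the same order. LMBRD1 encodes a lysosomal cobalamin transporter, and its border closed a PMD of 5888.84 kb. Its outer CpG, 306 bp from the edge, had 14 of 14, 19 of 19, 10 of 12, 16 of 16 and 25 of 25 methylated Baseline reads, and its inner CpG 7 of 23, 0 of 19, 1 of 29, 2 of 21 and 2 of 27.

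At Baseline, mC rose across the borders in every population. Over the outer 50 kb of all borders together, mC was 81.0% in Cl.3, 77.4% in Cl.9, 79.7% in R1 and 79.6% in R2. Over the inner 50 kb it was 64.9%, 62.2%, 65.2% and 65.2% in the same order. The step, the outer minus the inner level, was 16.1, 15.1, 14.5 and 14.4 points, a mean of 15.0 ± 0.792 (SD, n = 4), with no overlap between the outer and the inner levels. It was above 0 in 4 of 4 populations (exact two-sided sign-flip permutation p = 0.125, the smallest p that 4 populations allow). In Cl.6, whose calls chose the borders, the step was 16.6 points, given only as a description. Each pooled flank held 4419690 to 9769550 reads, so its 95% Wilson interval was at most 0.0466 points on either side, counting error only.

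**Figure D1:**
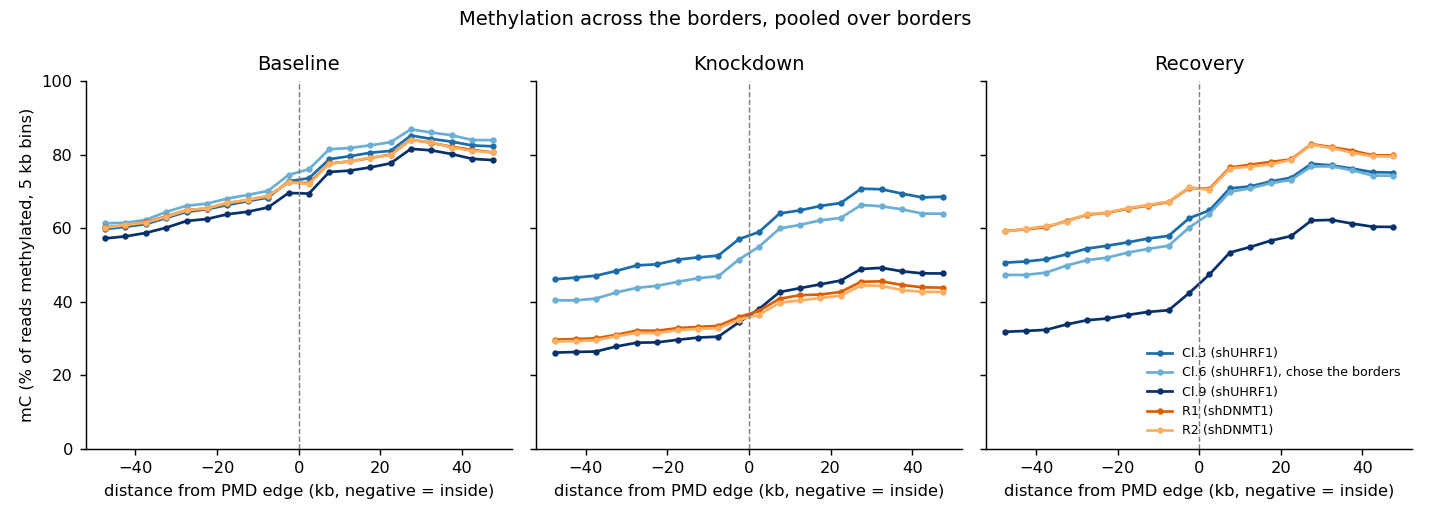
Methylation level (percent of reads methylated) in 5 kb bins from 50 kb inside to 50 kb outside the PMD edge, pooled over the 864 borders, with 1 line per population and 1 panel per stage. At Baseline the lines rise from between 57.2% and 61.3% in the innermost bin to between 78.5% and 83.9% in the outermost one, and at Knockdown Cl.9, R1 and R2 lie below Cl.3 and Cl.6 on both sides.

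In the innermost 5 kb bin mC was 59.7% in Cl.3, 57.2% in Cl.9, 60.3% in R1 and 60.1% in R2, and it reached 72.7%, 69.6%, 72.4% and 72.5% in the last bin before the edge. Across the edge itself the 2 neighbouring bins differed by only 0.839 points in Cl.3, and by -0.159, -0.176 and -0.513 points in Cl.9, R1 and R2. The largest rise between neighbouring bins lay 5 kb outside the edge in all 15 libraries. The highest Baseline bin was centred 27.5 kb outside, at 85.2% in Cl.3, 81.6% in Cl.9, 84.0% in R1 and 84.0% in R2, and it was also the outer bin with the fewest gene starts, at 2.89% of borders. In bins of 1 kb, mC fell across the edge, from 74.8% to 71.3% in Cl.3, from 71.3% to 67.1% in Cl.9, from 74.4% to 70.4% in R1 and from 74.2% to 70.5% in R2. Where the UMRs and LMRs (unmethylated and low-methylated regions) of Cl.6 Baseline were left out, the same edge showed a rise, from 77.3% to 83.9% between the 2 central 5 kb bins in Cl.3 and from 77.3% to 84.0% in R1. With these regions left out, the largest rise between neighbouring 5 kb bins lay at the edge itself in all 15 libraries. The edges and these regions both came from the Cl.6 Baseline list, and the libraries of Cl.6 are among those counted. In that list LMRs and UMRs covered 13.5% and 4.57% of the inner flanks, against 1.19% and 1.52% of the outer ones. Leaving them out thus changed the 2 sides unequally, and the place of this rise depends in part on that list.

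The inner flanks were more methylated than the interior of the PMDs. In the 16053 tiles of 50 kb that lay wholly in PMDs of 200 kb or more and touched no flank, Baseline mC was 45.8% in Cl.3, 40.8% in Cl.9 and 45.5% in both R1 and R2. In the 31785 tiles that were at least 60% HMD and touched no flank, it was 85.6%, 81.9%, 84.1% and 84.0%. The outer flanks thus lay closer to the HMD interior than the inner flanks lay to the PMD interior in each of these 4 populations. At the 1080 edges left out by the rule, the Baseline step was 6.70 points in Cl.3, 6.88 in Cl.9, 6.48 in R1 and 6.53 in R2, and the borders exceeded it by 8.38 ± 0.705 points (SD, n = 4; exact two-sided sign-flip permutation p = 0.125, the smallest possible). The rule asked for HMD calls in the outer flank, so the choice itself favoured a larger step.

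The step was larger at CpGs with no close neighbour. At low-density CpGs, whose nearest CpG lies 20 bp or more away, the Baseline step was 25.3 points in Cl.3, 25.3 in Cl.9, 24.4 in R1 and 24.4 in R2. At high-density CpGs it had the opposite sign, -1.77, -3.73, -3.90 and -3.98 points (mean -3.35 ± 1.06, SD, n = 4; exact two-sided sign-flip permutation p = 0.125, the smallest possible). Without the UMRs and LMRs the high-density step was 8.22, 9.46, 7.90 and 8.00 points in the same order, so its sign depended on those regions, while the low-density step was then 20.6, 21.1, 20.0 and 20.0 points. At solo-WCGW CpGs, of which the inner flanks held 55174 and the outer flanks 53312, the step was 34.7 points in Cl.3, 33.9 in Cl.9, 33.8 in R1 and 33.8 in R2. Inner solo-WCGW CpGs had 40.4%, 38.6%, 41.5% and 41.5% mC and outer ones 75.1%, 72.5%, 75.4% and 75.4%.

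The 2 sides also differed in sequence. The outer flanks held 10.6 CpGs per kb and the inner flanks 8.26, although their GC content was 41.4% and 40.9%. Density was highest in the first 5 kb outside, at 12.1 CpGs per kb, against 9.16 in the last 5 kb inside. Low-density CpGs made up 51.2% of CpGs outside and 62.0% inside, and solo-WCGW CpGs 11.6% and 15.5%. Start sites of protein-coding genes numbered 498 in the outer and 169 in the inner flanks, and 373 borders (43.2%) had at least 1 start outside and 148 (17.1%) inside. The first outer bin held a start at 8.33% of borders, against 3.12% for the last inner bin and 1.27% for the bin before it. The edge lay inside a protein-coding gene at 253 borders (29.3%), and that gene started outside at 129 and inside at 124 of them. These features were described without a test.

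**Figure D2:**
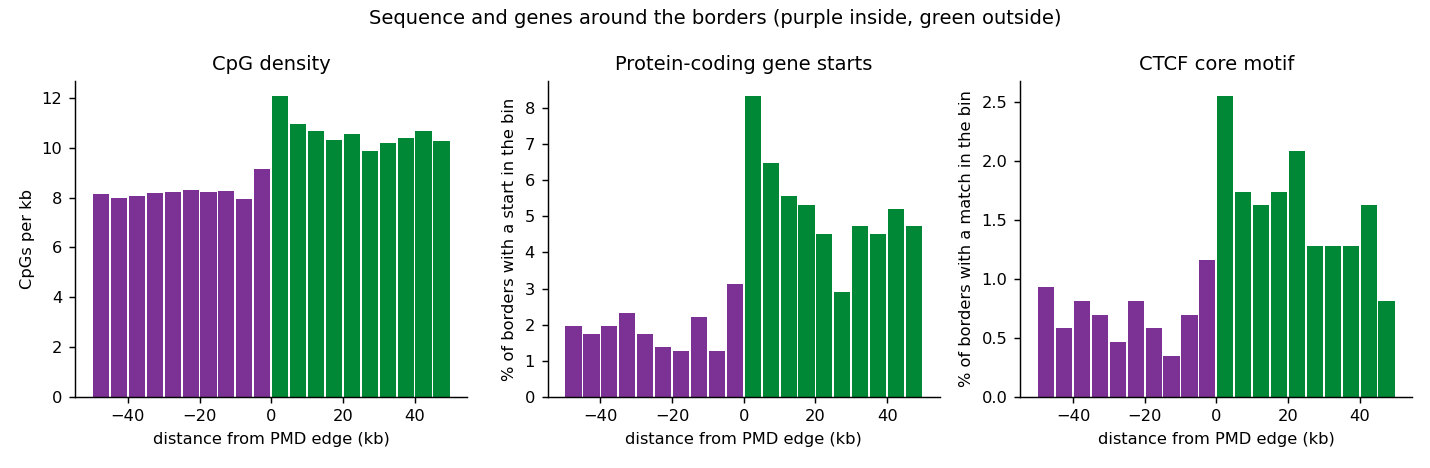
CpGs per kb (left), percent of borders with a protein-coding start (middle) and percent of borders with a CTCF core motif match (right) in each 5 kb bin around the 864 edges, inside in purple and outside in green. All 3 are highest in the first bin outside the edge.

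CTCF is the zinc-finger protein that marks many boundaries between chromatin loops, and a core of its motif, AGGGGGCGC, was searched on both strands. A match was found in the first outer bin at 22 borders (2.55%) and in the last inner bin at 10 (1.16%), whereas 1.13% of all 5 kb windows of the autosomes held one. Over the whole flanks, 121 borders (14.0%) had a match outside and 57 (6.60%) inside. The motif holds a CpG, and CpG density was also highest in the first outer bin, but the part of density in this difference was not tested.

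Single borders varied widely around the pooled step. Among the 849 borders with at least 50 reads in both flanks in every library, the Baseline step ranged from a 10th percentile of 0.911 to a 90th percentile of 33.3 points in Cl.3, from -1.91 to 33.6 in Cl.9, from -1.16 to 32.1 in R1 and from -1.31 to 31.8 in R2. Its median was 16.1, 15.3, 14.7 and 14.5 points. The outer flank was the higher one at 91.5% of these borders in Cl.3, 87.5% in Cl.9, 89.0% in R1 and 88.6% in R2. The steps of single borders correlated between populations, with Pearson's r of 0.913 between Cl.3 and Cl.9, 0.957 between Cl.3 and R1, 0.931 between Cl.9 and R1 and 0.988 between R1 and R2 across the 849 borders. These points share genome position, mappability and base composition and are not independent replicates. The median 95% Wilson interval of a single flank in a single library reached 0.953 points on either side outside and 1.13 inside.

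The borders of SRGAP2B and RGPD5, members of gene families with near-identical copies, had the largest steps, a mean of 81.4 and 74.9 points over Cl.3, Cl.9, R1 and R2. Both rested on thin reads, with as few as 85 and 36 reads in a flank in a library, and reads of such copies could be assigned to the wrong one. The border of UBE3A on chromosome 15, at position 25313821 (outer flank 25313822 to 25363821, inner flank 25263822 to 25313821), followed with 52.7 points. Its outer flank had 94.9% mC in Cl.3, 93.7% in Cl.9, 95% in R1 and 94.4% in R2, and its inner flank 45.6%, 35.3%, 43.5% and 42.7%. The border of USP31 on chromosome 16, at position 23061581 (outer flank 23061582 to 23111581), had a mean step of 51.0 points, with 96.0%, 95.1%, 95.4% and 95.7% outside and 44.2%, 42.5%, 45.5% and 45.9% inside. In both, the flanks did not overlap between any of these libraries, which follows from naming them by their step in the same libraries.

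At the other end of the order, 4 borders had a mean step of -34.1 (MALL), -33.9 (CPEB2), -33.3 (SPATA31A1) and -23.1 points (MRPL45), so their outer flank was the less methylated one. Only the flanks of CPEB2, which encodes an mRNA-binding regulator of translation, were well covered, with at least 3708 reads in each library. The edge lay on chromosome 4 at position 14998222, and CPEB2 lay 4.258 kb outside. The outer flank had 46.1% mC in Cl.3, 39.7% in Cl.9, 44.3% in R1 and 41.9% in R2, and the inner flank 74.5%, 79.98%, 76.1% and 76.9%. The inner flank of MRPL45 held as little as 1 read in a library, that of SPATA31A1 30 and that of MALL 54.

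At Knockdown, mC fell on both sides of the borders in every population, and the step remained. The outer flanks fell from 81.0% to 66.7% in Cl.3, from 77.4% to 45.5% in Cl.9, from 79.7% to 42.7% in R1 and from 79.6% to 41.6% in R2. The inner flanks fell from 64.9% to 50.2%, from 62.2% to 28.98%, from 65.2% to 32.0% and from 65.2% to 31.5%. Cl.9, R1 and R2 ended lower than Cl.3 on both sides. In Cl.6 the outer flanks fell from 83.0% to 62.5% and the inner flanks from 66.5% to 44.3%.

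**Figure D3:**
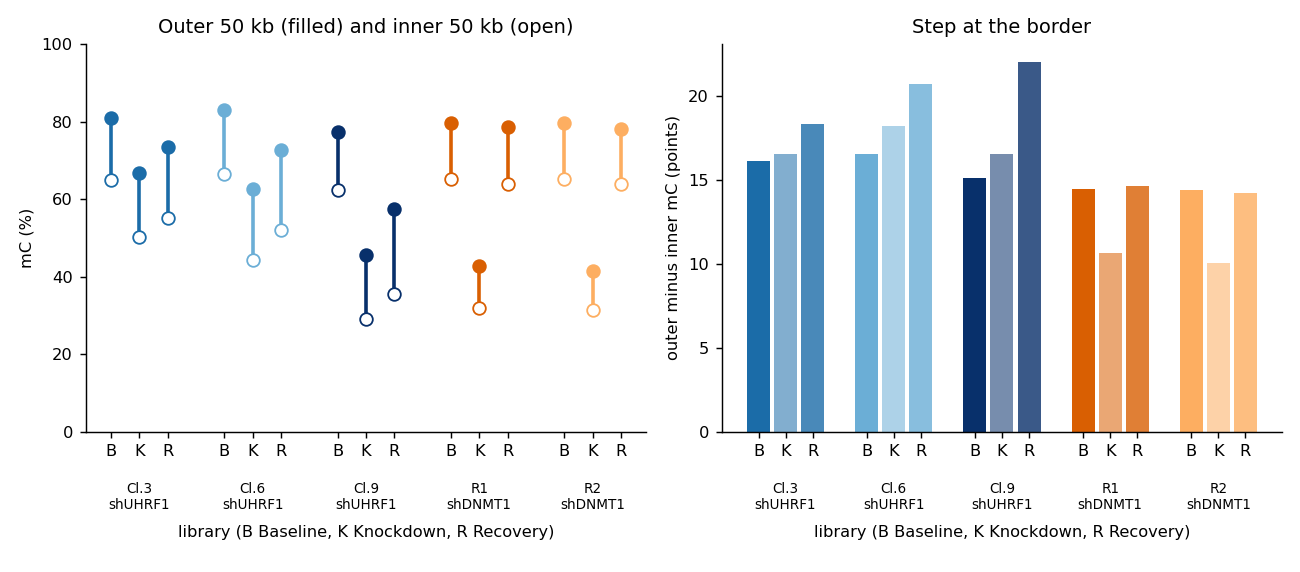
Left, mC of the outer 50 kb (filled) and the inner 50 kb (open) of the 864 borders in each library, in percent. Right, the step between them in points. The step lies between 14.4 and 16.6 points at Baseline, at 10.7 and 10.1 points in R1 and R2 at Knockdown, and at 21.99 points in Cl.9 at Recovery.

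The step at Knockdown was 16.5 points in Cl.3 and 16.5 in Cl.9, and 10.7 in R1 and 10.1 in R2. Against Baseline it changed by 0.401 points in Cl.3, 1.44 in Cl.9, -3.81 in R1 and -4.34 in R2. Over all CpGs together both of these shUHRF1 clones thus moved one way and both shDNMT1 populations the other, with a difference of 4.99 points between the hairpins (exact two-sided permutation of 2 against 2 populations p = 0.333, the smallest possible). Within a hairpin the mean change was 0.918 ± 0.731 points for shUHRF1 and -4.07 ± 0.376 for shDNMT1 (SD, n = 2 each), and the exact sign-flip test gave p = 0.5 for each, the smallest that 2 populations allow. The change in Cl.6 was 1.63 points. At the edges left out by the rule, the change was 0.361 points in Cl.3, -0.398 in Cl.6 and -0.462 in Cl.9. It was -1.41 in R1 and -1.38 in R2, so the clones did not share a sign there. Within CpG classes, with all regions included, the directions were not opposite: the steps at low-density and at solo-WCGW CpGs shrank and that at high-density CpGs rose in all 5 populations. Without UMRs and LMRs the low-density step moved little in Cl.3 (20.6 to 20.2 points) and Cl.6 (20.2 to 20.3), and fell from 21.1 to 17.5 in Cl.9, from 20.0 to 12.1 in R1 and from 20.0 to 11.8 in R2. The shUHRF1 mean over all CpGs was 0.441 points at CpGs with at least 5 reads in each library and 0.545 as the median over borders, and without UMRs and LMRs the clones changed order, at 0.993 in Cl.3 and 0.358 in Cl.9.

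How the loss compared between the flanks depended on the scale. As a share of the Baseline level, the outer flank kept more, 82.3% against 77.3% in Cl.3, 58.9% against 46.6% in Cl.9, 53.6% against 49.1% in R1 and 52.2% against 48.3% in R2. The difference in the share kept was 5.00, 12.3, 4.46 and 3.91 points, above 0 in 4 of 4 populations (mean 6.42 ± 3.94, SD; exact two-sided sign-flip permutation p = 0.125, the smallest possible). On the log2 odds scale (methylated over unmethylated reads), the outer flank instead fell by more, -1.09 against -0.88 in Cl.3, -2.03 against -2.01 in Cl.9, -2.40 against -1.99 in R1 and -2.46 against -2.03 in R2.

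The change of each flank was also tested with edgeR on methylated and unmethylated counts, together with 51179 other tiles of 50 kb. In shUHRF1 at Knockdown, 864 of 864 outer flanks and 847 of 851 inner flanks fell (adjusted p under 0.05), against 99.9% of all 52894 features called. In shDNMT1 at Knockdown, 864 outer and 849 inner flanks fell and 1 inner flank rose, against 100% of all features called when rounded to 3 digits. The border flanks were therefore called about as often as the rest of the genome. The inner flank that rose was that of RGPD5, which is among the thinly read ones above (log2 odds change 1.10, edgeR adjusted p = 0.0434). The median change of the outer flanks was -1.75 in shUHRF1 and -2.59 in shDNMT1 on the log2 odds scale, and that of the inner flanks -1.50 and -2.02. The medians of all features were -1.63 and -2.45.

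The difference between the hairpins at Knockdown was called in 299 of 864 outer flanks (34.6%) and in 9 of 851 inner flanks (1.06%). The share of all features was 42.2%. All the outer flanks called and 8 of the inner ones had a smaller loss in shUHRF1, and the inner flank of RGPD5 went the other way. The part of clone against bulk culture in this difference was not tested. It rested on single populations, and the calls moved with those of all features. Without R1 or without R2, 0 outer and 0 inner flanks and 0% of all features were called. Without Cl.9, 860 outer and 842 inner flanks were called, against 99.4% of all features. Without Cl.3, 685 outer and 203 inner flanks were called, against 68.7% of all features, and the directions were mixed: 653 outer flanks had a smaller and 32 a larger loss in shUHRF1, and 64 inner flanks a smaller and 139 a larger one. With Cl.6 included, 711 outer and 252 inner flanks were called, against 63.8% of all features. Without the population as a block, 0 of either kind and 0% of all features were called.

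The loss at CpGs of low and high density compared differently on the 2 sides. In the outer flanks, low-density CpGs fell from 83.1% to 65.5% in Cl.3, from 80.6% to 40.9% in Cl.9, from 82.8% to 40.6% in R1 and from 82.9% to 39.7% in R2. High-density CpGs there fell from 78.01% to 68.3%, from 73.0% to 51.7%, from 75.5% to 45.5% and from 75.2% to 43.8%. The outer low-density CpGs thus lost 7.96, 18.4, 12.3 and 11.8 points more than the high-density ones, written as a density gap of -7.96, -18.4, -12.3 and -11.8 points. In the inner flanks the gap was -3.13 in Cl.3 and -0.67 in Cl.9, against 4.27 in R1 and 4.62 in R2, so inside PMDs the shDNMT1 populations lost more points at high-density CpGs. As a share of Baseline the order turned, since inner low-density CpGs lost 54.8% in R1 and 55.7% in R2 and high-density ones 45.8% and 47.0%, and low-density CpGs lost the larger share on both sides in every population. The outer minus the inner gap was -4.82, -17.7, -16.5 and -16.4 points, below 0 in 4 of 4 populations (mean -13.9 ± 6.07, SD; exact two-sided sign-flip permutation p = 0.125, the smallest possible). This holds in points only. As a share of Baseline, low-density CpGs lost more than high-density ones by 8.81 points outside and 11.5 inside in Cl.3 and by 11.3 and 13.3 in Cl.6, against 20.1 and 17.8 in Cl.9, 11.3 and 9.08 in R1 and 10.4 and 8.77 in R2, so the order turned in 2 clones. Within shUHRF1 the gap in points rested on the clone, being -4.82 without Cl.9 and -17.7 without Cl.3. With the UMRs and LMRs left out its mean was -6.69 in shUHRF1 and -8.60 in shDNMT1. Inner low-density CpGs had 55.3% to 58.5% mC at Baseline in these populations and outer ones 80.6% to 83.1%.

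**Figure D4:**
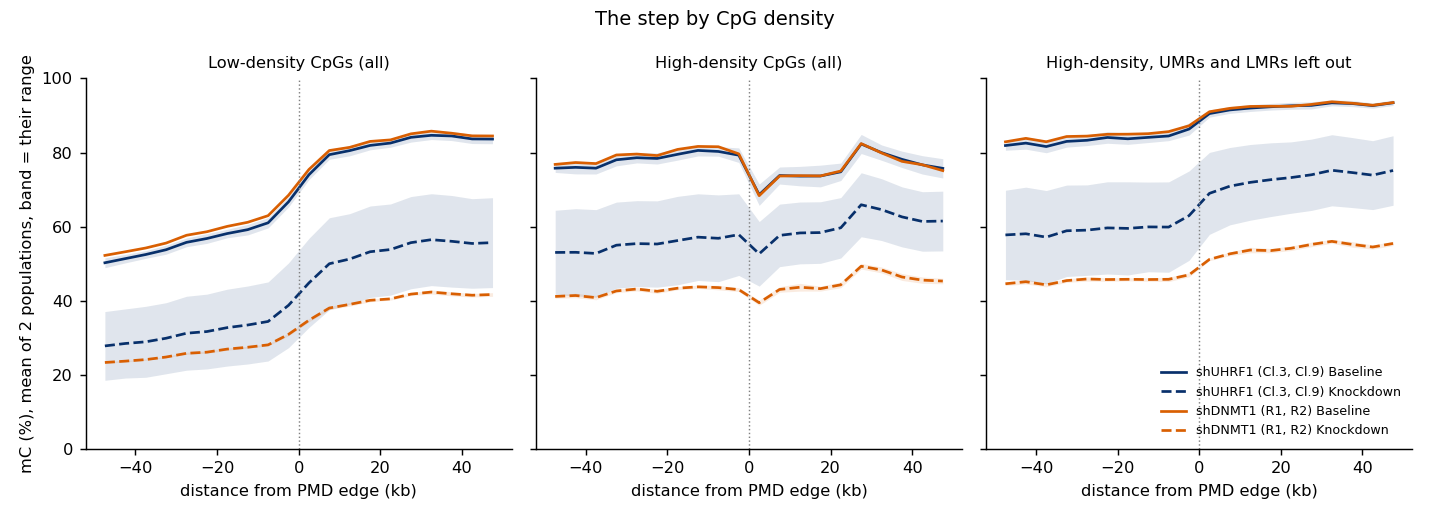
mC in percent by distance from the edge at low-density CpGs (left), high-density CpGs (middle) and high-density CpGs outside UMRs and LMRs (right), as the mean of Cl.3 and Cl.9 and of R1 and R2, with bands for their range, at Baseline (solid) and Knockdown (dashed). The low-density lines climb across the edge, whereas the high-density lines at Baseline dip in the first bin outside and only climb once UMRs and LMRs are left out.

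The step at high-density CpGs rose at Knockdown, and over all such CpGs its sign turned. It was 1.41 points in Cl.3, 7.97 in Cl.9, 2.42 in R1 and 1.83 in R2, a change of 6.75 ± 3.58 points from Baseline (SD, n = 4; exact two-sided sign-flip permutation p = 0.125, the smallest possible). Without UMRs and LMRs it was positive at both stages, and went from 8.22 to 11.2 points in Cl.3, 9.46 to 16.04 in Cl.9, 7.90 to 8.60 in R1 and 8.00 to 8.48 in R2, a change of only 2.68 ± 2.83 (SD, n = 4; exact two-sided sign-flip permutation p = 0.125). The low-density step shrank at the same time, to 23.6, 19.3, 14.2 and 13.8 points, a change of -7.13 ± 4.20 (SD, n = 4; exact two-sided sign-flip permutation p = 0.125). At solo-WCGW CpGs the step was 27.8, 17.4, 16.1 and 15.6 points, and the inner ones had 25.4%, 11.3%, 16.9% and 16.5% mC, the lowest in Cl.9.

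The largest losses of an outer flank in Cl.3 and Cl.9 were at borders of 4 genes. These borders were chosen by that loss. All 864 outer flanks were called at Knockdown in both hairpins, so the edgeR p-values given below do not mark any border out. By the mean of Cl.3 and Cl.9, mC fell by 33.9 points at the border in SLC8A1, a sodium-calcium exchanger gene (chromosome 2, position 40489510), and by 33.9 points at the border 90.48 kb from KDR, a vascular growth factor receptor gene (chromosome 4, position 54988000). It fell by 32.7 points at the border in TENM2, a neuronal adhesion gene (chromosome 5, position 167677083), and by 32.6 points at a border 291.521 kb from ETS1, a transcription factor gene (chromosome 11, position 128167239). The outer flank of SLC8A1 went from 79.8% to 54.0% in Cl.3 and from 71.4% to 29.3% in Cl.9, with 80.3% to 42.1% in R1 and 79.8% to 41.1% in R2 (edgeR adjusted p = 9.53e-11 in shUHRF1 and 3.35e-14 in shDNMT1). That of TENM2 went from 86.0% to 63.0% in Cl.3 and from 65.1% to 22.7% in Cl.9. In both genes Cl.9 started lowest and ended lowest. Cl.6 did not share the order: its outer flank changed by -18.02 points in SLC8A1, from 89.0% to 70.96%, which was less than its pooled change of -20.5 points, and by -25.8 near KDR, -29.7 in TENM2 and -22.3 near ETS1. Across eligible borders the median change was -23.6 points in Cl.3 and Cl.9 and -38.7 in R1 and R2.

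The smallest losses in these 2 clones were at MRPL45 (-11.4 points), SPATA31A1 (-11.8), NBPF26 (-11.9) and CPEB2 (-12.7), by the mean of Cl.3 and Cl.9. The outer flank of CPEB2 went from 46.1% to 35.4% in Cl.3, from 39.7% to 25.1% in Cl.9, from 44.3% to 19.8% in R1 and from 41.9% to 19.6% in R2 (edgeR adjusted p = 0.00869 in shUHRF1 and 2.03e-07 in shDNMT1). It started from a low level, as did NBPF26, whose outer flank had 43.0% in Cl.3 and 27.5% in Cl.9. The outer flanks of NBPF26 and SPATA31A1 were thinly read, with as few as 256 and 491 reads in a library. The median over outer flanks was 7693.5. The mean of NBPF26 rested on Cl.9, with a change of -5.62 points there and -18.3 in Cl.3. Those of MRPL45 and SPATA31A1 rested on Cl.3, with changes of -6.17 and -5.18 there and -16.7 and -18.5 in Cl.9. In Cl.6 the outer flank changed by -18.3 points at MRPL45, -7.45 at SPATA31A1, -27.9 at NBPF26 and -14.4 at CPEB2, and only NBPF26 exceeded its pooled fall. The outer flank of MRPL45, a mitochondrial ribosomal protein gene, started from 74.7% in Cl.3 and 72.3% in Cl.9 and ended at 68.5% and 55.6%.

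After doxycycline was withdrawn, both shDNMT1 populations regained more of the lost mC than any clone. In R1 and R2 the outer flanks had 78.6% and 78.2% mC and the inner flanks 63.9% and 64.0%, so that 96.9% and 96.2% of the loss outside and 96.0% and 96.4% inside was regained. In Cl.3 and Cl.9 the outer flanks had 73.3% and 57.5% and the inner flanks 55.0% and 35.5%. This was 46.4% and 37.5% of the loss outside, but only 32.9% and 19.5% inside, a difference of 13.4 and 18.0 points between the flanks. In Cl.6 it was 49.5% outside and 34.5% inside. Away from the borders, HMD interiors also regained a larger part of their loss than PMD interiors in Cl.3 and Cl.9. HMD interiors went from 85.6% over 72.7% to 79.5% in Cl.3 and from 81.9% over 52.2% to 65.8% in Cl.9. PMD interiors went from 45.8% over 34.6% to 37.4% and from 40.8% over 18.3% to 21.8%. The difference between the flanks was thus not particular to the borders. The outer minus inner difference in the share regained was 15.7 ± 3.22 points in shUHRF1 and 0.360 ± 0.729 in shDNMT1 (SD, n = 2 each; exact two-sided permutation of 2 against 2 populations p = 0.333, the smallest possible).

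The step at Recovery was 18.3 points in Cl.3 and 21.99 in Cl.9, which was 2.19 and 6.88 above Baseline. It was 14.6 in R1 and 14.2 in R2, a change of 0.172 and -0.216 points, which differed in sign. In Cl.6 it was 20.7 points, 4.15 above Baseline. Over all CpGs the step was thus larger at Recovery than at Baseline in each clone, but this depended on the CpGs and the scale. The step was larger at Recovery at low-density CpGs, 25.9 against 25.3 points in Cl.3, 28.4 against 25.9 in Cl.6 and 27.1 against 25.3 in Cl.9, and at high-density CpGs, 2.02 against -1.77, 4.73 against -0.845 and 9.61 against -3.73. At solo-WCGW CpGs it was smaller at Recovery, 31.6 against 34.7 points in Cl.3, 32.7 against 35.4 in Cl.6 and 25.9 against 33.9 in Cl.9. On the log2 odds scale the change from Baseline in Cl.3, Cl.6 and Cl.9 was -0.633, -0.880 and -1.34 outside and -0.595, -0.875 and -1.58 inside, so the outer flank was the one further from its start in Cl.3 and Cl.6 and the inner flank in Cl.9. Without UMRs and LMRs the outer flank was further from its start in Cl.9 too, at -1.85 against -1.74.

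By edgeR, Recovery differed from Baseline in shUHRF1 in 763 of 864 outer flanks (88.3%) and 843 of 851 inner flanks (99.1%), all of them lower, against 92.8% of all features. Without the population as a block, 0 outer and 0 inner flanks and 0% of all features were called. These counts rested on the bulk populations, which share the estimate of spread: without R1 or without R2, 474 outer flanks and 431 or 433 inner flanks were called, against 48.1% of all features. In shDNMT1, 0 outer and 0 inner flanks were called, against 0.00189% of all features, with 0 outer flanks and 1 inner flank at an unadjusted p under 0.05, and limma called 0 of both. Without Cl.3 or without Cl.9, however, 284 outer and 117 inner flanks were called in shDNMT1, against 26.8% or 26.7% of all features, so the 0 does not show that the Baseline level was fully restored. The difference between the hairpins at Recovery was called in 491 outer (56.8%) and 543 inner flanks (63.8%), all lower in shUHRF1, against 51.4% of all features. It fell to 0 outer and 0 inner flanks without R1 or without R2, and rose to 858 outer and 841 inner flanks without Cl.3, against 99.2% of all features, and to 756 and 824 without Cl.9, against 90.6%. Without the population as a block it was 0 of either kind.

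The lowest shares regained by an outer flank in Cl.3 and Cl.9 were 9.11% at CYP2C8, a cytochrome P450 gene (chromosome 10, position 95041769), 11.6% at a border 402.949 kb from TNC, which encodes the matrix protein tenascin C (chromosome 9, position 115521157), 12.01% in SLC8A1 at its second border (chromosome 2, position 40276129) and 13.4% at a border 26.07 kb from FIGN, a microtubule-severing enzyme gene (chromosome 2, position 163762082). They are means of the 2 clones among 743 eligible borders that lost 10 points or more in both. In Cl.6, whose pooled share was 49.5%, CYP2C8 was also low at 34.6%, but TNC was at 50.4%, SLC8A1 at 56.2% and FIGN at 60.5%. The median of all 800 eligible borders was 42.2% in Cl.3 and Cl.9 and 96.6% in R1 and R2. The outer flank of CYP2C8 went from 76.1% over 50.6% to 52.6% in Cl.3 and from 58.4% over 19.1% to 23.2% in Cl.9. It went from 69.5% over 30.5% to 64.9% in R1 and from 69.7% over 29.8% to 65.7% in R2, so the bulk populations ended within 5 points of their start. In Cl.6 the same flank went from 83.2% over 56.2% to 65.6%, which was the highest of the clones at each stage. SLC8A1 held 2 of the named borders, whose outer flanks faced each other, and the outer flank of the second had 81.4% mC in Cl.6 at Baseline but 48.7% in Cl.3, 46.4% in Cl.9, 61.4% in R1 and 59.2% in R2.

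The domain lists of the other libraries placed many of these borders at the same site at Baseline, few at Knockdown. A border was matched when a PMD edge facing the same way lay within 10 kb. At Baseline this held for 62.0% of borders in Cl.3, 44.7% in Cl.9, 70.0% in R1 and 71.5% in R2 (mean 62.1% ± 12.3, SD, n = 4), and 240 borders (27.8%) were matched in all 4, 110 (12.7%) in none. The rest of the PMD edges of 200 kb or more were matched at 69.2%, 50.6%, 60.4% and 66.7%. With only PMDs of 200 kb or more in the other lists, 21.3% were matched in Cl.3, 7.29% in Cl.9, 63.8% in R1 and 63.9% in R2, so most matches in the clones were to edges of shorter PMDs. Bases within 10 kb of an edge facing one way made up 4.53% to 6.74% of the autosomes in these 4 lists. The matched borders were 1.957% to 4.60% of the PMD edges in each list, since most edges belonged to shorter PMDs.

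At Knockdown 30.4% of borders were matched in Cl.3, 11.1% in Cl.9, 5.90% in R1 and 4.75% in R2, a fall of 49.0 ± 19.0 points from Baseline (SD, n = 4; exact two-sided sign-flip permutation p = 0.125, the smallest possible). The lists held more edges at Knockdown, 29764 to 42782 against 13446 to 19726 at Baseline in these populations, and 10.1% to 14.5% of the autosomes lay within 10 kb of an edge, so the matches in R1 and R2 were below that share, and the 11.1% in Cl.9 lay near its share of 10.1%. The edges left out by the rule were matched more often than the borders at this stage, at 40.6% in Cl.3, 48.4% in Cl.9, 19.1% in R1 and 21.6% in R2. In Cl.6 the share fell from its own borders to 16.6%, near the 13.8% of the autosomes within 10 kb of an edge. Of the edges left out, 40.3% were matched in Cl.6. At Recovery 50.3% were matched in Cl.3, 22.3% in Cl.9, 67.01% in R1 and 68.3% in R2, while 8.06%, 11.6%, 5.51% and 5.38% of the autosomes lay within 10 kb of an edge. The edges left out by the rule were matched at 48.0%, 42.4%, 69.8% and 68.3%, which was above the borders in Cl.9 and R1, below them in Cl.3 and about equal in R2.

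At Knockdown the calls changed in both flanks. In R1 and R2 81.7% and 83.7% of the inner flanks was called UMR and only 6.66% and 6.07% PMD, against 96.0% and 95.2% PMD at Baseline. The outer flanks were 56.2% and 55.1% PMD, with 0.00298% and 0.00595% HMD, against 72.4% and 74.5% HMD at Baseline. In Cl.9 76.6% of the inner flanks was UMR, but 49.2% was still PMD, against 54.1% at Baseline, and the outer flanks were 87.3% PMD and 0.0175% HMD, against 80.6% HMD at Baseline. In Cl.3 60.9% of the inner flanks was PMD, against 78.6% at Baseline, and the outer flanks were 50.7% PMD and 29.5% HMD, against 79.5% HMD at Baseline. Classes were called in each library separately and UMRs can lie inside PMDs, so the shares can sum to over 100%. HMDs also had to reach a fixed lower limit of mean mC, so HMD cover shrinks where the level falls throughout.

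**Figure D5:**
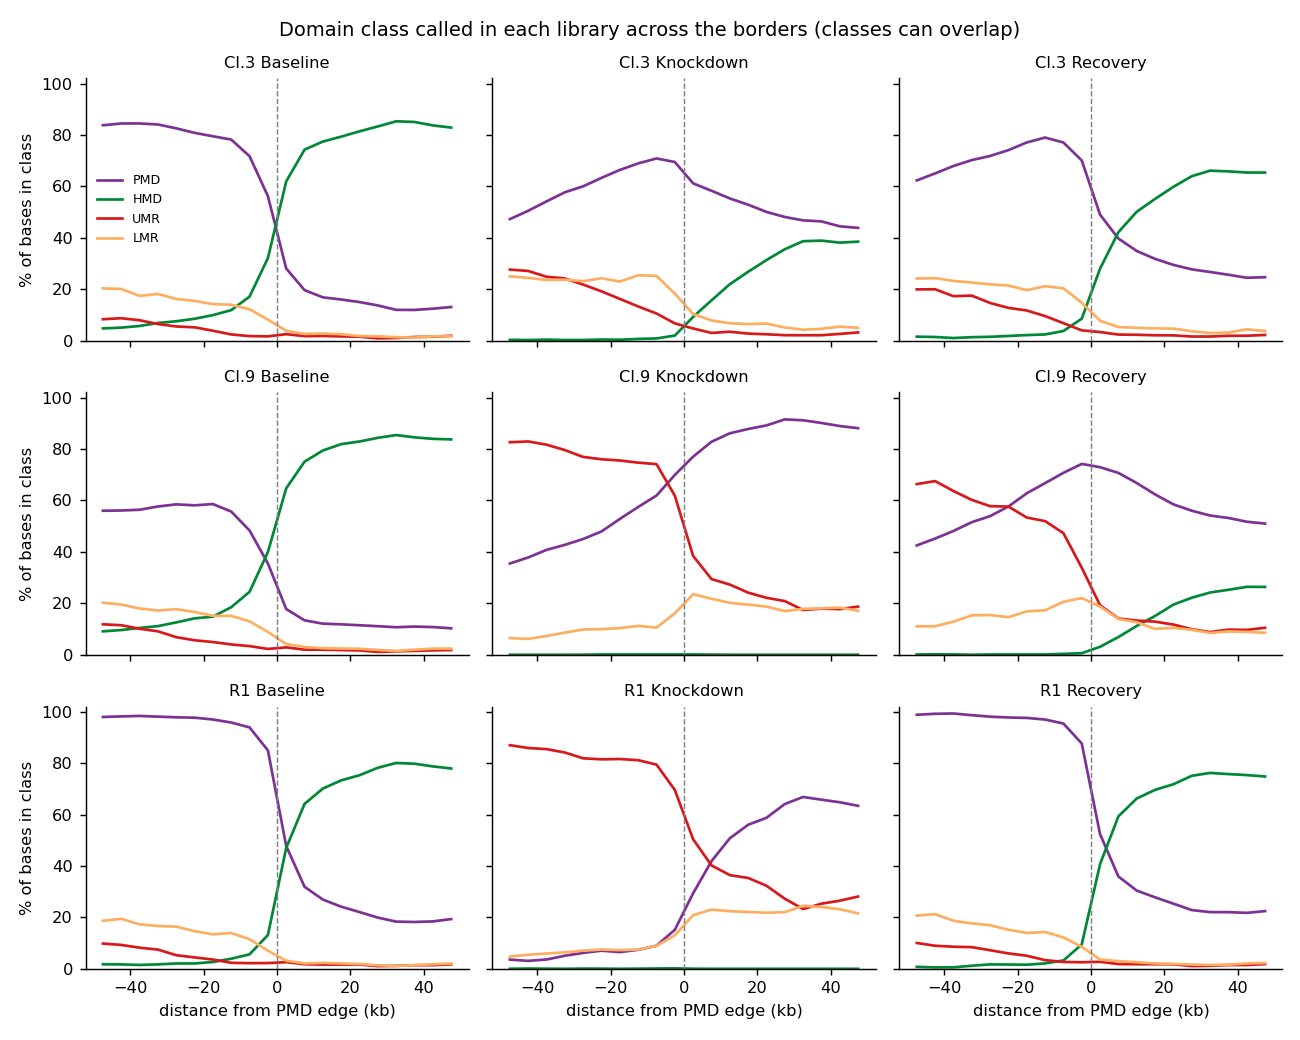
Percent of bases called PMD, HMD, UMR or LMR in 5 kb bins around the 864 edges, for Cl.3, Cl.9 and R1 (rows) at Baseline, Knockdown and Recovery (columns). In R1 the PMD line lies inside the edge at Baseline and outside it at Knockdown, where the UMR line takes its place inside, and the Recovery panel resembles the Baseline panel.

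Borders were also counted by cover alone, as flanks at least 60% PMD inside and at least 60% HMD outside in a library's own list, which asks for neither a PMD edge nor a PMD length. By this count 538 borders (62.3%) qualified in Cl.3, 318 (36.8%) in Cl.9, 628 (72.7%) in R1 and 636 (73.6%) in R2 at Baseline. At Knockdown 97 (11.2%) did in Cl.3 and 0 in Cl.9, R1 and R2, where no outer flank was at least 60% HMD. The study called HMDs only above a fixed lower limit of mean mC. The pooled outer flanks of Cl.9, R1 and R2 had 45.5%, 42.7% and 41.6% mC at Knockdown, below that limit. At Baseline they had 77.4%, 79.7% and 79.6%, also below it, although 80.6%, 72.4% and 74.5% of them was called HMD. The limit applies to the mean of each domain, whereas the pooled level includes UMRs and LMRs. The counts of qualifying borders depend on the level of mC through that limit. They do not by themselves show that a border was lost. The same count was not made for the rest of the genome. At Recovery the numbers were 308 (35.6%), 46 (5.32%), 592 (68.5%) and 608 (70.4%). In the same Knockdown libraries the methylation step was still above 0 at 93.2% of the 849 well-read borders in Cl.3, 96.2% in Cl.9, 93.8% in R1 and 91.4% in R2. Its median was 16.1, 15.9, 10.4 and 9.93 points. The share of borders with a step of 20 points or more went from 38.2% to 38.9% in Cl.3 and from 36.4% to 36.6% in Cl.9, against 34.7% to 14.0% in R1 and 35.1% to 12.6% in R2.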

How the data were processed

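Following the labels and the methods, reads were aligned to the human genome, and the authors deposited raw counts, the methylated reads and all reads at each CpG, in 3 tables without a filter on coverage. All 27852739 autosomal positions were checked to be CpGs of hg38. The authors deposited 1 list of domain classes per library, called with MethylSeekR. HMDs in it were the remaining regions whose mean mC reached a fixed lower limit. Their processing notes name bedtools 2.25.0.

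Reads were summed over bins of 5 kb and flanks of 50 kb around each edge, so deeper CpGs weigh more. Tests used Cl.3, Cl.9, R1 and R2, and Cl.6 was described only. Values within a population were tested by exact two-sided permutations, which with 4, 2 or 2 against 2 populations cannot go below p = 0.125, 0.5 and 0.333, so none could pass 0.05. Each population was 1 culture per stage. At its smallest, the sign-flip p shows only that all populations agree in sign, whatever their spread. The edgeR p-values came from 1 fit in which clones and bulk cultures share the estimate of spread. They therefore do not measure the spread between the clones alone. R1 and R2 are labelled as replicates of the shDNMT1 bulk cells, and whether they were made separately is not stated. Flanks and the other 50 kb tiles that held 5 or more CpGs, and 50 or more reads in each library, were tested with edgeR 4.0.16 (quasi-likelihood, population as a block, Benjamini-Hochberg over all features, tested on simulated data), with limma 3.58.1 as an alternative. The simulated populations differed only by random spread, and only Knockdown in shDNMT1 was changed. The simulation thus does not show how the fit behaves where clones differ. The labels tie the libraries of a population to 1 clone or culture, which is the basis of the block. Deviations from the group mean correlated between its stages with r of 0.710 to 0.900 in the clones and 0.0162 to 0.0571 in the bulk populations. Genes and start sites were from GENCODE release 44.

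Borders were named by rule, outside chromosome 8 and with at least 100 CpGs in each flank: the 4 largest and 4 smallest Baseline steps, the 4 largest and 4 smallest losses of the outer flank in Cl.3 and Cl.9, and its 4 lowest shares regained. Members, lists and tests were chosen with earlier results of these data known. The alternatives were other flanks, coverage, domain and edge settings, other fits, and leaving out each population.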

Additional observations from a re-analysis of the deposited data

Results flagged for a closer look

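At the borders, the change of the step at Knockdown had opposite signs in the 2 hairpins. It was 0.401 points in Cl.3, 1.63 in Cl.6 and 1.44 in Cl.9, against -3.81 in R1 and -4.34 in R2. The exact test of 2 against 2 populations cannot reach 0.05, so the difference was in effect not tested. The opposite signs hold over all CpGs together, since the steps at low-density and solo-WCGW CpGs fell and that at high-density CpGs rose in all 5 populations. Without UMRs and LMRs the low-density step moved little in Cl.3 (20.6 to 20.2 points) and Cl.6 (20.2 to 20.3). At the edges left out by the rule, the step over all CpGs changed by 0.361 points in Cl.3, -0.398 in Cl.6 and -0.462 in Cl.9. There the change was -1.41 in R1 and -1.38 in R2, so Cl.6 and Cl.9 moved the same way as the bulk populations.

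The density gap inside the borders at Knockdown, the change at low-density minus that at high-density CpGs, was also opposite in sign. It was -3.13 points in Cl.3, -2.53 in Cl.6 and -0.67 in Cl.9, against 4.27 in R1 and 4.62 in R2, and this difference was not tested. It holds in points only, since as a share of Baseline the inner low-density CpGs lost more than the high-density ones in all 5 populations.

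With edgeR the hairpins differed at Knockdown in 299 outer and 9 inner flanks, against 42.2% of all features, and at Recovery in 491 outer and 543 inner flanks, against 51.4%. At Knockdown the outer flanks, at 34.6%, were below the share of all features, and the inner flanks, at 1.06%, far below it. At Recovery the outer and inner flanks, at 56.8% and 63.8%, were above it. No group held 4 or more libraries, so single outlying libraries were not looked for.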

How the results depend on the processing

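The step, the shares kept and regained and the density gap kept their direction in 118 of 123 alternatives, with the median over borders, other coverage, flanks of 10 to 50 kb, PMDs of 500 kb or more, outer flanks at least 80% HMD, and Cl.6 included among them. For the shDNMT1 results the alternative with Cl.6 included could not differ, since Cl.6 carries shUHRF1, but it was counted. The splits by the start or end of a PMD, which were not planned, were counted as well. The change of the step at Knockdown in shUHRF1 (0.918 points) nevertheless ranged from 0.401 to 1.44 over its alternatives. The exceptions in direction were in shDNMT1 and near 0. The change of the step at Recovery (-0.0219 points) was 4.48e-05 as the median over borders, 0.0926 without UMRs and LMRs and 0.0448 at borders at the start of a PMD, a split chosen after seeing the data, and -0.216 to 0.172 when a population was left out. The difference in the share regained (0.360 points) was -0.156 to 0.875 when a population was left out.

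Matched edges depended on the tolerance and the PMD length. Within 5 kb, 47.4% of borders were matched at Baseline, 1.74% at Knockdown in shDNMT1 and 53.6% at Recovery in shDNMT1. In the clones Cl.3 and Cl.9 the shares within 5 kb were 19.7% and 6.60% at Knockdown and 34.8% and 12.8% at Recovery. Within 25 kb the shares were 77.1% at Baseline, 38.5% and 21.2% at Knockdown in shUHRF1 and shDNMT1, and 57.4% and 81.0% at Recovery. With only PMDs of 200 kb or more in the other lists they were 39.1%, 3.30%, 0%, 5.67% and 59.3%, and with PMDs under 5 kb apart merged the last was 66.7%. The 39.1% is a mean over 7.29% in Cl.9 to 63.9% in R2.

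Without the population block that pairs the stages, edgeR called 0 outer and 0 inner flanks at Recovery in shUHRF1 and 0 of either kind in the difference between the hairpins at Knockdown and at Recovery. With all 15 libraries it called 711 outer and 252 inner flanks in that difference at Knockdown (63.8% of all features), and limma called 14 inner flanks (35.1%). Leaving out a population gave 474 to 861 outer and 431 to 842 inner flanks at Recovery in shUHRF1, and 0 to 284 and 0 to 117 in shDNMT1, while the share of all features called moved from 48.1% to 99.7% and from 0% to 26.8%. For the difference it gave 0 to 860 and 0 to 842 at Knockdown and 0 to 858 and 0 to 841 at Recovery, with 0% to 99.4% and 0% to 99.2% of all features. A population left alone in its hairpin was assumed to vary like the others.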
